A study of Mus musculus with 12 samples.

Results

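Lmo2, Lhx2, Lmo4, Ldb1, Lyl1 and Tal1 encode LIM-domain transcription regulators and their partners, and their mRNA levels were compared in sorted mouse B lymphoma cells. The 6 genes are 6 of 12961 genes tested. Each has 1 probe set annotated to that gene alone, and all 6 passed a filter on dim probe sets. Lmo2 and Lhx2 were picked from these data, Lmo2 for its higher level with CHIR99021 and Lhx2 for its higher level in BCR-independent clones, so their levels are given as descriptions with no test except where stated. The other 4 were picked as relatives and partners.

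The lymphomas came from l-MYC;B1-8f mice of strain C57BL/6J x BALB/c and grew as primary cultures, which were transduced with TAT-Cre, a cell-permeable recombinase protein, to remove the B cell receptor (BCR). All cells were sorted after 4 days of mixed culture. CHIR99021-treated BCR-negative cells grew in it with the GSK3 inhibitor. BCR-independent cells were BCR-negative clones that arose on prolonged culture, with 1 clone for each tumour (clone 8 of tumour 2567, clone 7 of tumour 2646 and clone 1 of tumour 2676), mixed with BCR-positive cells of their own tumour. Untreated BCR-negative cells and untreated BCR-positive cells came from mixed cultures of these 2 kinds of cell. Every group shared the transgenic background and had 1 array from each of 3 tumours, making 12 Affymetrix Mouse Gene 1.1 ST arrays in all. The labels used here state neither animal ages nor a CHIR99021 dose. The titles of the untreated BCR-negative and BCR-positive arrays of tumours 2646 and 2676 end in the mark (2), which the labels do not explain, so treated cells and clones have like-marked untreated partners in tumour 2567 alone.

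Values are log2 signals of 1 probe set per gene, and levels of different genes cannot be ranked, since probe sets differ in response. Array medians lay between 3.32 and 3.44. An immunoglobulin heavy-chain variable gene taken as a check of the sort read 4.93 to 6.26 in CHIR99021-treated BCR-negative cells, 3.72 to 4.21 in clones, 5.85 to 6.97 in untreated BCR-negative cells and 9.45 to 9.97 in BCR-positive cells. Of 7 B cell markers measured, 5 lay above the array medians on all 12 arrays, Cd79a among them at 9.48 to 10.75. Ms4a1, which encodes CD20 and marks most mature B cells, lay at or below the medians on all 12. In these bulk samples fewer cells of a type and less RNA per cell cannot be told apart.

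LIM domains are zinc-binding protein modules that hold proteins together and do not themselves bind DNA. LIM-only proteins such as LMO2 and LMO4 consist of little more than such domains, and LIM-homeodomain proteins such as LHX2 add a DNA-binding homeodomain. The scaffold LDB1 pairs with itself and with LIM domains, and in blood cells it joins LMO2 to GATA factors and to heterodimers of TAL1 or LYL1 with E proteins such as E2A. LMO2 is needed for blood stem cell formation, is switched on aberrantly in T cell leukaemia, and among mature human B cells marks those of the germinal centre. LHX2 is best known from forebrain, eye and hair follicle development, and its forced expression expands mouse blood progenitors.

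Promoter windows of 250 bases before an annotated start were available for 5 of the 6 genes, in 11 windows, from RefSeq on GRCm38.p6. Those printed belong to genes whose levels set BCR-independent clones, or CHIR99021-treated cells, apart without overlap from another group. Capitals mark matches on either strand to the E-box CANNTG, read by TAL1, LYL1 and E proteins, to GATA, or to CTTTGA, the core read by the Wnt pathway's TCF and LEF factors.
Lhx2 start 1, chr2:38339031-38339280, plus strand: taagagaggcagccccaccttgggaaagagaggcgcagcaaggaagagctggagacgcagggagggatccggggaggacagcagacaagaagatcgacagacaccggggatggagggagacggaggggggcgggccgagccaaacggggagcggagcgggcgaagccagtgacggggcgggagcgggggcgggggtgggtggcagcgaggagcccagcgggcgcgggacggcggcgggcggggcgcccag
Lhx2 start 2, chr2:38351058-38351307, plus strand: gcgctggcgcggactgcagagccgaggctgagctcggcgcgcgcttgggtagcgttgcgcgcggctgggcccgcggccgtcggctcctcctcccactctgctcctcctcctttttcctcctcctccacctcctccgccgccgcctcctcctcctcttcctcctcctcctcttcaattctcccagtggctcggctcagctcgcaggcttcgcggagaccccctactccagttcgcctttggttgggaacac
Lmo4 start 2, chr3:144202397-144202646, minus strand: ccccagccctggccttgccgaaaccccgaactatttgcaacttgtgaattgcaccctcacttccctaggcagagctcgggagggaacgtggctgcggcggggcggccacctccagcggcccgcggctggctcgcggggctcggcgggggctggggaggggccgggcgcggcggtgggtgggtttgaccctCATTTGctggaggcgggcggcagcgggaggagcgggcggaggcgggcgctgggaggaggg
Lyl1, chr8:84701207-84701456, plus strand: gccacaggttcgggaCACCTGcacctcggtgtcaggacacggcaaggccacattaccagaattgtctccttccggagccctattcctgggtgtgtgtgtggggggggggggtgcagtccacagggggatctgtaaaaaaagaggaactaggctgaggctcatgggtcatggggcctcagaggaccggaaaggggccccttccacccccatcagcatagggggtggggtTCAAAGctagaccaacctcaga
Both Lhx2 windows held none of the 3 motifs. The Lmo4 window, 1 of 3 and overlapping that of start 3, held 1 E-box, while that of start 1 held no motif, and the Lyl1 window held 1 E-box and 1 TCF/LEF core with no overlap between them. Of 32817 windows of this length, 66.2% held an E-box, 53.6% a GATA and 13.8% a TCF/LEF core, so a match describes the letters and marks no bound site. GC content was 72.8% and 68.4% in the Lhx2 windows, 73.6% in the Lmo4 window and 60% in the Lyl1 window, against a median of 52.4% over all windows.

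**Figure D1:**
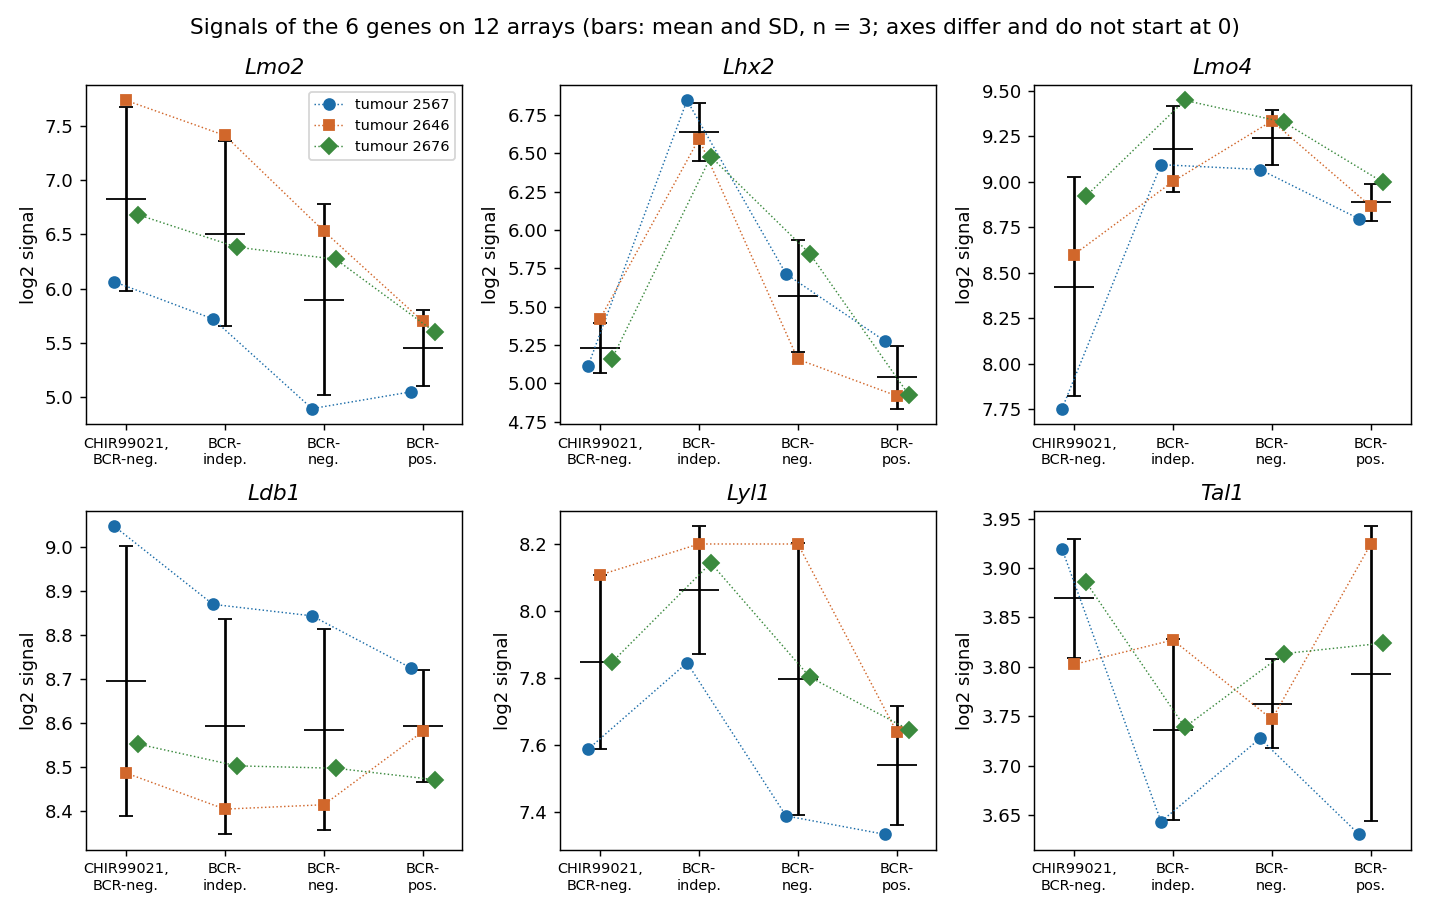
Log2 signal of the 6 genes on the 12 arrays, in 1 panel per gene, with 1 point per tumour in each group and black bars for the group mean and SD (n = 3), on axes that differ and do not start at 0. Lhx2 stands at 6.48 to 6.84 in the 3 clones, above the 9 other arrays, and Lmo2 is lowest in tumour 2567 and highest in tumour 2646 in every group.

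Lmo2, the LIM-only bridge of the complex, had log2 signals of 6.07, 7.73 and 6.68 in CHIR99021-treated BCR-negative cells (tumours 2567, 2646 and 2676 in this order, here and below). BCR-independent clones had 5.72, 7.41 and 6.38, untreated BCR-negative cells 4.90, 6.53 and 6.27, and BCR-positive cells 5.05, 5.70 and 5.60. Treated cells were the highest of the 4 groups in each tumour and the clones the next, while the treated and untreated BCR-negative ranges overlapped, with tumour 2567 the lowest of the tumours in every group. Group means were 6.83 ± 0.84 in treated cells, 6.51 ± 0.85 in clones, 5.90 ± 0.88 in untreated BCR-negative cells and 5.45 ± 0.35 in BCR-positive cells (SD, n = 3 each).

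Within tumours, treated minus untreated BCR-negative cells gave 1.17, 1.20 and 0.41 for Lmo2, a mean log2 difference of 0.93 ± 0.45 (SD, n = 3), or 1.90-fold. This is the comparison behind the choice of the gene and carries no test. It was 0.79 to 1.19 when a tumour was left out and 0.86 with the title mark in the model, and the like-marked tumour 2567 gave 1.17. Treated minus BCR-positive cells gave 1.01, 2.04 and 1.08, a mean of 1.38 ± 0.57 (SD, n = 3), without overlap of the groups. The clones exceeded untreated BCR-negative cells by 0.83, 0.88 and 0.11, or 0.61 ± 0.43 (SD, n = 3). Treated cells exceeded the clones by 0.34, 0.32 and 0.30, or 0.32 ± 0.022 (SD, n = 3). That last difference varied little between tumours, although the groups' ranges overlap. Untreated BCR-negative minus BCR-positive cells gave -0.15, 0.83 and 0.67, or 0.45 ± 0.53 (SD, n = 3), so these neighbours did not differ beyond their spread. Without tumour 2567 that mean was 0.75, and without tumour 2646 it was 0.26.

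Clones and BCR-positive cells were tested for Lmo2, with the caution that the choice of the gene names no reference group and BCR-positive arrays may have entered it. Its log2 signal was higher in the clones by 0.67, 1.71 and 0.78, or 1.05 with a standard error of 0.23, and did not pass the test (limma adjusted p = 0.227). Groups did not overlap. Several of these comparisons share arrays, so their values are set side by side and are not separate evidence.

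Lhx2, the LIM-homeodomain factor, had log2 signals of 6.84, 6.59 and 6.48 in BCR-independent clones. CHIR99021-treated BCR-negative cells had 5.11, 5.42 and 5.16, untreated BCR-negative cells 5.71, 5.16 and 5.85, and BCR-positive cells 5.28, 4.92 and 4.93. All 3 clones, each grown from a different tumour, lay above the other 9 arrays. Means were 6.64 ± 0.19 in clones, 5.23 ± 0.16 in treated cells, 5.57 ± 0.37 in untreated BCR-negative cells and 5.04 ± 0.20 in BCR-positive cells (SD, n = 3 each).

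Clones minus untreated BCR-negative cells gave 1.13, 1.44 and 0.63 for Lhx2, a mean log2 difference of 1.07 ± 0.41 (SD, n = 3), or 2.09-fold. Against BCR-positive cells the clones gave 1.57, 1.67 and 1.55, or 1.60 ± 0.067 (SD, n = 3), a 3.03-fold difference that was nearly equal in the 3 tumours. With the title mark in the model these differences were 0.92 and 1.45. Treated BCR-negative cells lay below the clones by 1.73, 1.17 and 1.32, a mean difference of -1.41 ± 0.29 (SD, n = 3). The 3 remaining groups were not separated: treated minus untreated BCR-negative cells gave -0.60, 0.26 and -0.69, treated minus BCR-positive cells -0.16, 0.50 and 0.23, and untreated BCR-negative minus BCR-positive cells 0.44, 0.24 and 0.92. The last of these had the same sign in 3 of 3 tumours and a mean of 0.53 ± 0.35 (SD, n = 3), or 0.34 to 0.68 when a tumour was left out.

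**Figure D2:**
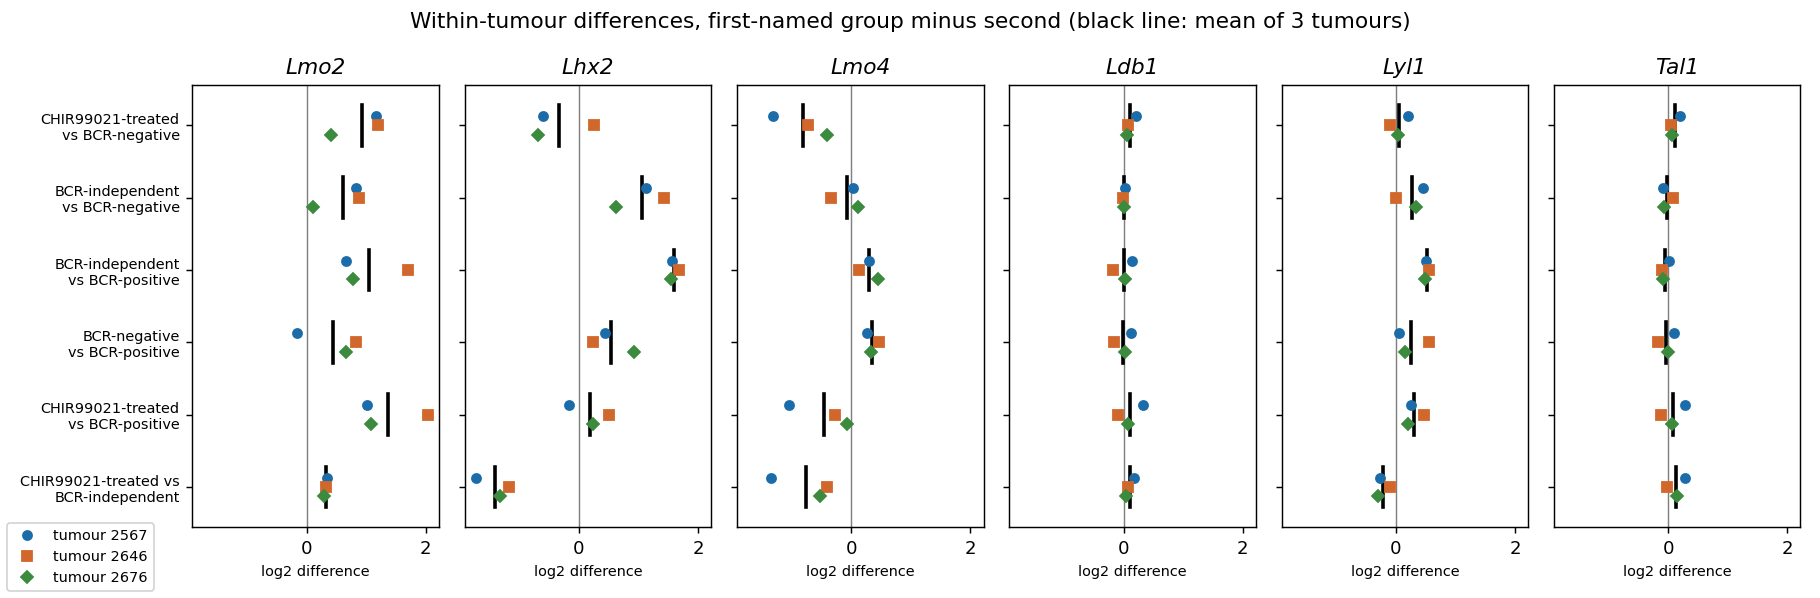
Within-tumour log2 differences of the 6 genes in 6 comparisons, first-named group minus the second, with 1 marker per tumour and a black line at the mean of 3 tumours. Lhx2 differs by 1.55 to 1.67 between clones and BCR-positive cells, and the mean differences of Ldb1 and Tal1 lie between -0.056 and 0.13.

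Lmo4, a LIM-only protein that also binds LDB1 and is widely expressed in epithelia, had log2 signals of 7.75, 8.60 and 8.92 in CHIR99021-treated BCR-negative cells. BCR-independent clones had 9.09, 9.00 and 9.45, untreated BCR-negative cells 9.07, 9.33 and 9.33, and BCR-positive cells 8.80, 8.86 and 9.00. Treated cells lay below all untreated BCR-negative cells and all clones. Treated minus untreated BCR-negative cells gave -1.31, -0.73 and -0.41, a mean log2 difference of -0.82 with a standard error of 0.18 (95% interval -1.23 to -0.40). It missed the threshold (limma adjusted p = 0.0627), and passed it with arrays weighted by their quality (-0.68, adjusted p = 0.0156). With those weights 1635 of 12961 genes were called in this comparison, against 248 without them. The like-marked tumour 2567 held the largest of the 3 differences, and without it the mean was -0.57 (limma adjusted p = 0.119). Treated cells minus clones gave -1.34, -0.40 and -0.53, a mean of -0.76 (limma adjusted p = 0.153). Without tumour 2567 that mean was -0.46.

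Clones and untreated BCR-negative cells each lay above BCR-positive cells in Lmo4 without overlap, the clones only narrowly (9.00 in both groups at the nearest arrays), by means of 0.29 (limma adjusted p = 0.653) and by 0.36 (limma adjusted p = 0.999). With the title mark in the model the first of these was 0.049. For treated cells minus BCR-positive cells, Lmo4 gave -1.04, -0.26 and -0.078, a mean of -0.46 with overlapping groups (limma adjusted p = 0.263), and -0.17 without tumour 2567. Group means of Lmo4 were 8.42 ± 0.60 in treated cells, 9.18 ± 0.23 in clones, 9.24 ± 0.15 in untreated BCR-negative cells and 8.89 ± 0.10 in BCR-positive cells (SD, n = 3 each).

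Ldb1, the shared scaffold, had log2 signals of 9.05, 8.49 and 8.55 in treated BCR-negative cells, 8.87, 8.40 and 8.50 in clones, 8.84, 8.41 and 8.50 in untreated BCR-negative cells and 8.73, 8.58 and 8.47 in BCR-positive cells. Tumour 2567 was the highest in each group, and the groups overlapped in every comparison. Mean differences ran from -0.0074, between untreated BCR-negative and BCR-positive cells, to 0.11, between treated and untreated BCR-negative cells. None passed the test, and the limma adjusted p for treated against untreated BCR-negative cells was 0.639.

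Lyl1, a basic helix-loop-helix factor that takes the place of TAL1 in some LMO2 complexes, had log2 signals of 7.59, 8.11 and 7.85 in treated BCR-negative cells and 7.85, 8.20 and 8.14 in clones. Untreated BCR-negative cells had 7.39, 8.20 and 7.80, and BCR-positive cells 7.33, 7.64 and 7.65. Clones lay above BCR-positive cells without overlap, by 0.51, 0.56 and 0.50. The mean log2 difference was 0.52 with a standard error of 0.11 (95% interval 0.29 to 0.76). It did not pass the test over all genes (limma adjusted p = 0.195), although the 3 within-tumour values differed by an SD of only 0.034. Clones minus untreated BCR-negative cells gave 0.46, 0.00 and 0.34, a mean of 0.27 (limma adjusted p = 0.814) that was 0.17 without tumour 2567 and 0.40 without tumour 2646. Treated minus untreated BCR-negative cells gave 0.050 (limma adjusted p = 0.889), and treated minus BCR-positive cells 0.31 (limma adjusted p = 0.199).

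Tal1, the other helix-loop-helix partner and a driver of blood stem cell and red cell programmes, had log2 signals between 3.63 and 3.92 on the 12 arrays, against array medians of 3.32 to 3.44 and 60th percentiles of 3.76 to 3.92. Its group means were 3.87 ± 0.060 in treated cells, 3.74 ± 0.092 in clones, 3.76 ± 0.045 in untreated BCR-negative cells and 3.79 ± 0.15 in BCR-positive cells (SD, n = 3 each). Its mean difference farthest from 0 was that between treated cells and clones, with 0.28, -0.025 and 0.15 in the tumours and a mean of 0.13 (limma adjusted p = 0.641). Without tumour 2567 that mean was 0.061, and without tumour 2646 it was 0.21. No detection calls were used, so whether this signal lies above background is not given by the values.

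Of the 4 genes tested in each comparison, and Lmo2 added between clones and BCR-positive cells, limma called 0. Between treated and untreated BCR-negative cells 1.91% of all genes tested were called. There 1 of the 4 had an unadjusted p under 0.05, as had 16.6% of all genes. Between clones and untreated BCR-negative cells 0.00772% were called, and 1 of 4 had such a p, against 5.99% of all genes. For clones and BCR-positive cells 0.0849% were called, and 2 of 5 had such a p, against 9.61%. Lmo2, picked from these data, is among those 2 beside Lyl1, so nothing is read from that count. Untreated BCR-negative and BCR-positive cells gave 0.00772% called and 1 of 4, against 3.19%. Treated and BCR-positive cells gave 0.802% called and 2 of 4, against 15.6%, and treated cells and clones gave 0.162% called and 1 of 4, against 12.3%. With so few genes called in most comparisons, 0 of 4 says little about these genes.

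Counted with the chosen pair, 4 of the 6 genes (Lmo2, Lhx2, Lmo4 and Lyl1) were higher in the clones than in BCR-positive cells without overlap, against 4.79% of all genes. Nothing is read from that count, since 2 of the 4 were chosen on these arrays. Elsewhere the counts without overlap were 1 of 6 lower in treated than in untreated BCR-negative cells (Lmo4, against 4.68% of all genes), 1 higher in clones than in untreated BCR-negative cells (Lhx2, 2.99%) and 1 higher in untreated BCR-negative than in BCR-positive cells (Lmo4, 2.5%). Another 1 was higher in treated than in BCR-positive cells (Lmo2, 6.99%), and 2 were lower in treated cells than in clones (Lhx2 and Lmo4, 3.92%). The shares beside Lmo2 and Lhx2 are background values for genes chosen on these arrays, and nothing is read from those counts either. The 4 genes other than Lmo2 and Lhx2 were picked as relatives and partners, though with earlier results of these data known. Their median difference was 0.15 between clones and BCR-positive cells, where the median over all genes was 0.0221. Between treated and untreated BCR-negative cells it was 0.078, where the median over all genes was 0.0256. It was -0.0094 between clones and untreated BCR-negative cells and -0.056 between treated cells and clones. Untreated BCR-negative against BCR-positive cells gave 0.125, and treated against BCR-positive cells 0.090. Single genes had median absolute differences of 0.080 to 0.12 over all genes tested, so nothing is read from these medians of 4 genes.

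Each gene's sum of squares over the 12 arrays was split into a share between groups, a share between tumours and a remainder. Ldb1 had 5.36% between groups and 83.7% between tumours. Lyl1 had 41.0% and 50.1%, Lmo4 58.1% and 22.8%, and Tal1 28.9% and 21.4% with 49.7% left over. For Lmo2 the shares were 42.2% and 49.6%, and for Lhx2 90.6% and 1.87%. Medians over all genes tested were 20.7% between groups and 39.8% between tumours. Lmo2 and Lhx2 were picked for group differences, so nothing is read from their shares between groups.

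The tumours differed in a fixed order for some of these genes. Lmo2 was lowest in tumour 2567 and highest in tumour 2646 in 4 of 4 groups, with tumour means of 5.43, 6.84 and 6.24. Lyl1 was also lowest in tumour 2567 in 4 of 4 groups and highest in tumour 2646 in 3, with means of 7.54, 8.04 and 7.86. Ldb1 went the other way and was highest in tumour 2567 in 4 of 4 groups, with means of 8.87, 8.47 and 8.51. Lhx2 had tumour means of 5.74, 5.52 and 5.60 and no fixed order.

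**Figure D3:**
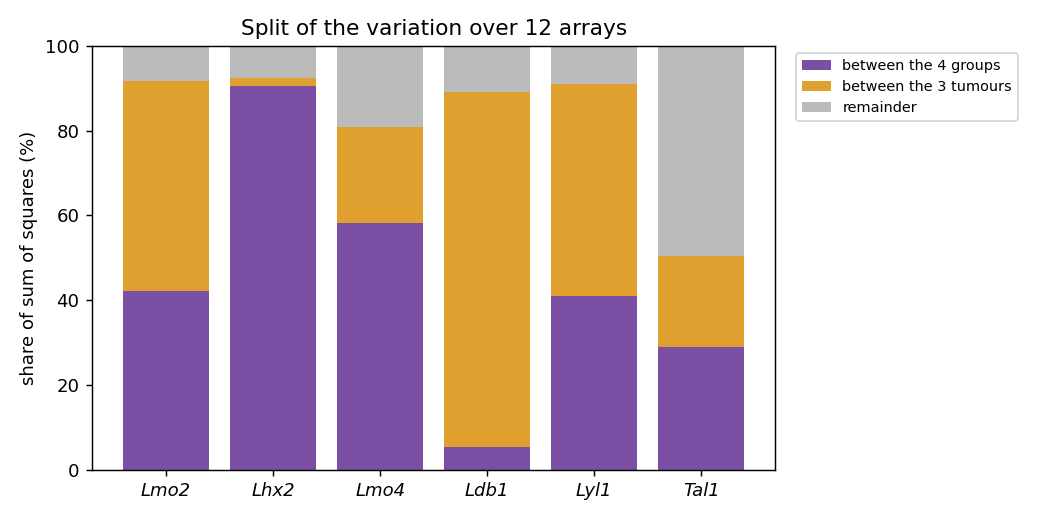
Share of each gene's sum of squares over the 12 arrays that lies between groups, between tumours and in the remainder, in percent. Ldb1 has 83.7% between tumours and Lyl1 50.1%, and the bars of Lmo2 and Lhx2 belong to genes picked for group differences.

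Around the 6 genes, 51 relatives, partners, inhibitors and reported targets in 9 lists were examined, of which 46 had a probe set and 35 were tested. Tcf3 was the 1 gene of the lists called in any of the 6 comparisons. It was called lower in treated cells than in untreated BCR-negative cells (0.849% of all genes were) and than in BCR-positive cells (0.447%). At an unadjusted p under 0.05 in limma, the counts were 6 of 35 between treated and untreated BCR-negative cells (16.6% of all genes), 2 between clones and untreated BCR-negative cells (5.99%) and 5 between clones and BCR-positive cells (9.61%). They were 0 between untreated BCR-negative and BCR-positive cells (3.19%), 10 between treated and BCR-positive cells (15.6%) and 5 between treated cells and clones (12.3%).

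Tcf3 encodes the E2A proteins, which pair with TAL1 and LYL1 and direct early B cell development. Its log2 signals were 8.33, 8.25 and 8.79 in CHIR99021-treated BCR-negative cells, 8.63, 8.73 and 8.82 in clones, 9.00, 8.95 and 9.12 in untreated BCR-negative cells and 8.92, 9.05 and 9.14 in BCR-positive cells. Treated cells lay below all untreated BCR-negative and BCR-positive cells. Tcf3 fell by 0.67, 0.70 and 0.33 against untreated BCR-negative cells, a mean log2 difference of -0.56 with a standard error of 0.10 (limma adjusted p = 0.0365). Against BCR-positive cells the difference was -0.58 (limma adjusted p = 0.0429). Both calls were lost without the tumour block (adjusted p = 0.275 and 0.322), with the title mark in the model (adjusted p = 0.142 and 0.143), with the 2 groups compared fitted alone (adjusted p = 0.0713 and 0.220), and when any 1 tumour was left out, with differences from -0.68 to -0.50 and from -0.70 to -0.47. The clones lay below untreated BCR-negative cells by a mean of 0.29 that did not pass the test (limma adjusted p = 0.799).

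Among reported targets of the TAL1 and LMO2 complex, 5 of 6 had a probe set and 1 was tested, Hhex, a homeodomain factor of blood and endothelium; it is named here after its values were seen. Hhex had log2 signals of 5.24, 6.18 and 4.66 in treated cells, 4.04, 5.62 and 4.51 in clones, 3.60, 5.75 and 4.15 in untreated BCR-negative cells and 4.10, 4.78 and 4.06 in BCR-positive cells. Treated cells were the highest in each tumour, with differences from untreated BCR-negative cells of 1.64, 0.43 and 0.51. The mean difference of 0.86 did not pass the test (limma adjusted p = 0.129), and without tumour 2567 it was 0.47. Kit, Epb42, Klf1 and Nfe2 failed the filter on dim probe sets.

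**Figure D4:**
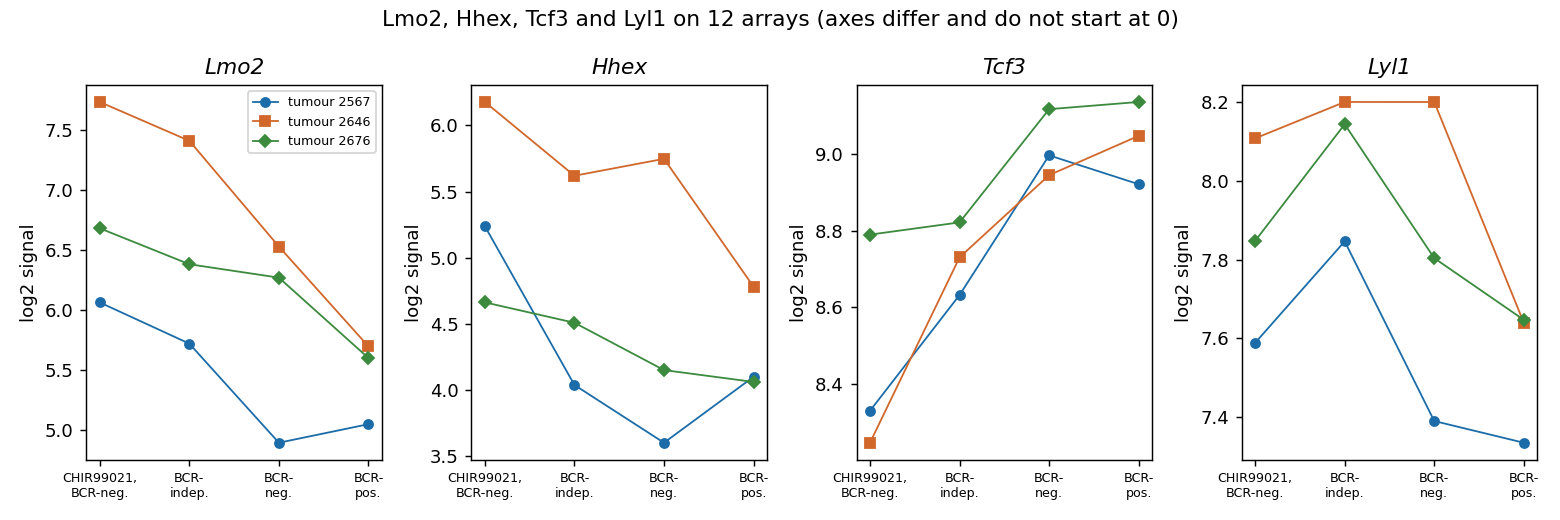
Log2 signal of Lmo2, Hhex, Tcf3 and Lyl1 in the 4 groups, with 1 line per tumour and axes that differ between panels and do not start at 0. Tcf3 is lowest in treated cells in each tumour, where Lmo2 and Hhex are highest.

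Beside Tcf3, limma called 0 genes of these lists. Of the LIM-only genes, Lmo1 and Lmo3 failed the filter at 2.73 to 2.96 and 2.52 to 2.86. Of 11 LIM-homeodomain genes 9 were tested, with Lhx4 at 4.37 to 4.67 and Isl1, a factor of motor neurons and heart, at 3.46 to 4.996. Isl1 was 3.86 in treated and 4.36 in untreated BCR-negative cells on average (limma adjusted p = 0.162). None of the 9 passed the test, and Lhx1 and Lhx3 lay below the median on all 12 arrays. All 5 cofactors of the LDB and SSBP kind were tested. Ssbp4, of a family that stabilises LDB1, averaged 7.24 in treated and 6.92 in untreated BCR-negative cells (limma adjusted p = 0.168), and Rlim, a ubiquitin ligase for LIM cofactors, averaged 7.67 and 7.46 in the same groups (limma adjusted p = 0.233).

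Of 4 helix-loop-helix partners 3 were tested, Tcf3 among them, and Tcf12, which encodes the E protein HEB, averaged 7.93 in treated and 7.84 in untreated BCR-negative cells (limma adjusted p = 0.841). Inhibitors of these factors included Id2, which averaged 3.70 in clones and 4.59 in BCR-positive cells (limma adjusted p = 0.304), and Id3, which ranged from 3.60 to 5.77 over the arrays. GATA factors and other partners were all tested, 8 of 8, with Gata1 at 2.90 to 3.23 below every array median. Fli1, an ETS factor, averaged 8.22 in treated and 8.64 in untreated BCR-negative cells (limma adjusted p = 0.140), and Cbfa2t3, a corepressor, ranged from 5.35 to 6.13. Of the 3 LMO4 partners 2 were tested. Among germinal centre genes 4 of 8 were tested, with S1pr2 at 3.44 to 4.26 and Mybl1 at 3.18 to 4.23.

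For each of Lmo2 and Lhx2, the genes with the most similar pattern were found by Pearson correlation over the 12 arrays after each tumour's mean was removed. The arrays share tumours and groups, and the ranking runs over all genes tested, so high values arise by search and carry no p. Lmo2 was most like Ralb, a small GTPase (r = 0.952), followed by Sys1 (0.947), Prkaa2, the catalytic alpha-2 subunit of AMP kinase (0.932), Pde4dip (0.930) and Tnfaip1 (0.930). Ralb differed by 0.42 between treated and untreated BCR-negative cells and by 0.57 between treated and BCR-positive cells. Lhx2 was most like Tnnt3, a fast skeletal muscle troponin T (r = 0.957), then Atg7, an autophagy enzyme (0.945), Tmem186 (0.907), Vgll1 (0.906) and Zfp687 (0.905). Tnnt3 differed by 0.48 between clones and untreated BCR-negative cells. Vgll1 averaged 3.04 and Pde4dip 3.26, both below every array median.

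**Figure D5:**
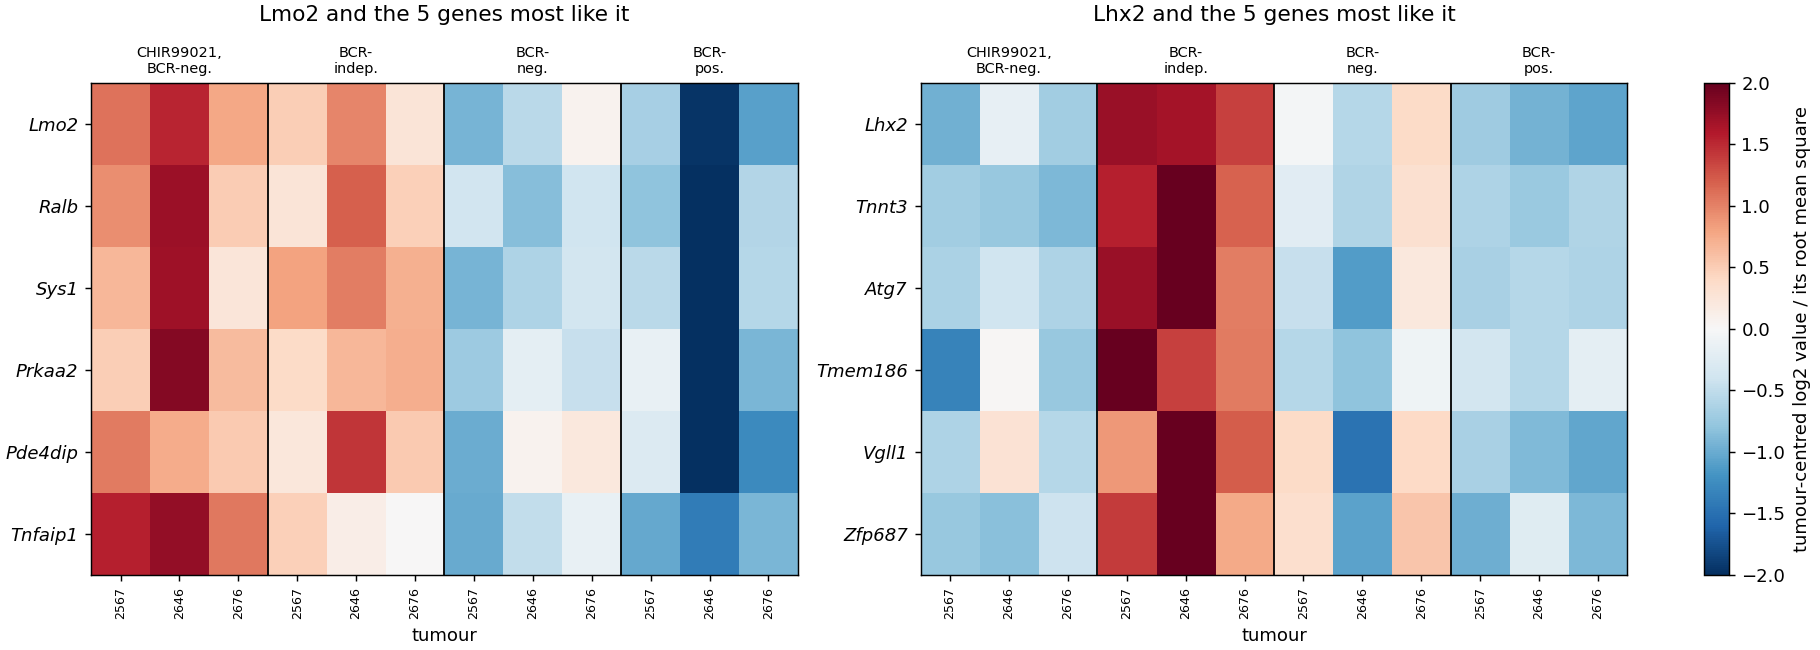
Tumour-centred log2 values of Lmo2 and Lhx2 and of the 5 genes most like each, on 12 arrays, divided by each gene's root mean square, with red above and blue below the tumour's mean and values beyond the colour bar shown at its ends. The Lhx2 panel is red in the 3 clones. All its rows but Tmem186 are also above 0, by less, in untreated BCR-negative cells of tumour 2676. The Lmo2 panel is red in treated cells and clones, though Tnfaip1 is near 0 in the clone of tumour 2676. Lmo2 itself is highest in tumour 2646 in both groups, but not every other row is.

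Markers of other blood and vessel cells were summed as linear signal to show what else the sorted cells could hold. Of 7 measured T cell markers 5 lay at or below the array medians on all 12 arrays, as did 3 of 4 erythroid markers (Klf1, Alas2 and Gata1), and Kit and Procr among 4 progenitor markers. Of 3 megakaryocyte markers Pf4 did. Myeloid markers, 4 of 7 at or below the medians, summed to 66.2 to 76.0 in treated cells, 60.6 to 96.0 in clones, 68.6 to 109 in untreated BCR-negative cells and 65.4 to 107 in BCR-positive cells. Without Itgam, the brightest of them, the sums were 47.4 to 52.0 in treated cells, 43.7 to 49.9 in clones, 44.6 to 49.1 in untreated BCR-negative cells and 44.0 to 45.9 in BCR-positive cells. The endothelial and stromal list, with Kdr at or below the medians and 2 of 5 markers above them, summed to 75.5 to 150 in treated cells, 119 to 215 in clones, 115 to 209 in untreated BCR-negative cells and 110 to 177 in BCR-positive cells. Without Pecam1, an adhesion molecule that leukocytes also carry, the sums were 43.7 to 51.9 in treated cells, 45.3 to 55.5 in clones, 43.3 to 52.4 in untreated BCR-negative cells and 43.1 to 46.8 in BCR-positive cells. The spread of both sums between arrays thus lay mostly in 1 gene each. B cell markers summed to 2148 to 3126 in treated cells, 2673 to 4161 in clones, 2435 to 4191 in untreated BCR-negative cells and 2685 to 3421 in BCR-positive cells. In treated against untreated BCR-negative cells 5 of 6 tested B cell markers were lower, with a median difference of -0.44. Limma called 0 of the 6, against 1.91% of all genes. Ebf1 (-1.21, limma adjusted p = 0.0677) and Pax5 (-0.46, limma adjusted p = 0.0902) were lower without overlap, as were 4.68% of all genes. Cd79a was higher by 0.041. The part of these lists in the differences of Lmo2, Lmo4 and Tcf3 was not tested.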

How the data were processed

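Sorted mouse B lymphoma cells were profiled on 12 arrays. The deposited values are log2 signals, and per the submitters' processing notes the authors made them with Affymetrix Power Tools and RMA. RMA corrects background and normalizes arrays, which compresses small differences of dim probe sets. Versions of both were not given in the sources used here. There were 0 columns of the table without a sample.

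Of 35556 probe sets, 21218 had 1 gene symbol. Symbols were updated through RefSeq (GRCm38.p6) for 21185 and kept for 33. Probe sets that on 3 or more arrays exceeded the 40th percentile were kept, and the one with the highest mean represented each of 12961 genes. In R 4.3.3, limma 3.58.1 (lmFit, eBayes) fitted group and tumour over all 12 arrays, with 6 residual and 3.41 prior degrees of freedom. The threshold for a call was 0.05 after Benjamini-Hochberg adjustment. The fit was tested on simulated data.

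The tumour block rests on the animal named in the titles. Deviations from group means correlated between 0.284 and 0.792 for arrays of one tumour and between -0.716 and 0.165 for arrays from unlike tumours. Each of 12 arrays matched its own tumour best. Removing group means pushes arrays of unlike tumours in a group towards negative correlation, so part of this contrast is built in. P-values set a mean difference against the spread left after group and tumour were fitted. With 3 arrays per group, 1 from each tumour, their precision is limited.

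The 6 genes, the lists and the tests were chosen with earlier results of these data known. Named are the 6 genes, list genes called in any comparison, the 2 of highest mean in each list with at least 3 tested, the 5 genes most like Lmo2 and Lhx2, and check genes. Hhex and genes named as failing the filter, as lineage markers or as carrying a marker sum fall outside this rule and were named after their values were seen. Alternatives were no block, other filters, array weights, a trended robust prior, cyclic loess, quantile normalization, 2 groups alone, probe set means, the title mark as a term and leaving out each tumour.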

Additional observations from a re-analysis of the deposited data

How the results depend on the processing

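The counts of these genes called stayed at 0 in all 6 comparisons under the alternatives run, with 1 exception: array weights gave 1 in treated against untreated BCR-negative cells (Lmo4, -0.68, limma adjusted p = 0.0156). Array weights also raised the calls over all 12961 genes in that comparison from 248 to 1635, so nothing is read from this count. With no replicate block the counts were also 0. Both calls of Tcf3 were lost there, as they were under several alternatives that kept the block. Of 351 tested differences under alternatives, 321 kept their direction and side of the threshold. Apart from those of Tcf3, none was called in the main fit, so only Tcf3 had calls to lose. Several alternatives also leave a difference itself unchanged, so the 321 is no measure of stability. Of 143 differences of Lmo2 and Lhx2 that had no test, 141 moved by no more than the SD between tumours. Several alternatives leave these differences unchanged too, and leaving out a tumour cannot move their mean by more than that SD. Most of these rows could therefore not have moved further, and the 141 is no measure of stability either. The Lhx2 difference between clones and BCR-positive cells, 1.60, was 1.45 with the title mark in the model, and 1.56 to 1.62 when a tumour was left out. Lmo2 in treated against untreated BCR-negative cells ranged from 0.79 to 1.19 without a tumour, and Lhx2 in clones against untreated BCR-negative cells from 0.88 to 1.28.

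Differences near 0 changed sign, and the cause was not tested. For Ldb1 they were 0.021 with array weights, 0.0047 with quantile normalization and 0.12 with the title mark between clones and BCR-positive cells. Ldb1 gave -0.00043 with array weights between clones and untreated BCR-negative cells, and 0.022 with array weights and 0.0015 with quantile normalization between untreated BCR-negative and BCR-positive cells. Tal1 gave 0.051 between clones and untreated BCR-negative cells and 0.021 between clones and BCR-positive cells, both with the title mark. Without a tumour, ranges that spanned 0 were -0.024 to 0.12 for Lyl1 in treated against untreated BCR-negative cells and -0.15 to 0.073 for Lmo4 in clones against untreated BCR-negative cells. They were -0.0023 to 0.016 (Ldb1) and -0.079 to 0.0030 (Tal1) in clones against untreated BCR-negative cells, and -0.073 to 0.088 (Ldb1) in clones against BCR-positive cells. For untreated BCR-negative against BCR-positive cells they were -0.071 to 0.072 (Ldb1) and -0.094 to 0.043 (Tal1), and for treated against BCR-positive cells -0.0067 to 0.20 (Ldb1) and -0.030 to 0.18 (Tal1).

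Over all genes, calls between treated and untreated BCR-negative cells numbered 248, and 12 without the block, 32 with the title mark, 1635 with array weights and 1 to 17 without a tumour, so 1.91% is itself unstable. Treated against BCR-positive cells gave 104, and 7 without the block, 8 with the title mark and 4 to 19 without a tumour. Over all alternatives the counts ran from 1 to 1635 and from 0 to 182 in these comparisons, from 0 to 39 for treated cells against clones (21 as reported), from 1 to 14 for clones against BCR-positive cells (11), and from 0 to 3 for clones against untreated BCR-negative cells (1) and from 0 to 2 for untreated BCR-negative against BCR-positive cells (1).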
